A study of Mus musculus with 16 samples.

Results

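The expressed long intergenic noncoding RNAs (lincRNAs) of mouse liver are described here as a group of 101 genes. They were the rows that the deposited table of gene counts gives the type lincRNA and whose estimated counts, summed over 16 liver libraries, reached at least 1000. The table held 1025 lincRNA rows among 23258 rows in all, so most annotated lincRNAs lay under that total. Members were thus chosen by their measured sum over libraries, and that sum is given as a description only. Just inside were E130102H24Rik with a sum of 1007 estimated counts, Gm16973 with 1011 and Gm26880 with 1028. Just outside were 1700096K18Rik with 983, Gm17354 with 974 and Gm26608 with 970.

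The livers came from C57BL/6 mice with a liver-specific knockout of miR-33 or from wild-type mice, each on a high-fat diet (HFD) or on chow. There were 5 HFD knockout, 4 HFD wild-type, 4 chow knockout and 3 chow wild-type libraries, all of whole liver RNA depleted of ribosomal RNA. The deposited name of the table includes Alb-Cre, a driver whose albumin promoter is known to act in hepatocytes. The labels give no age, sex or time on the diet, and do not say that each library came from its own animal. No value given here checks the deletion, since miR-33 was not analysed here.

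A lincRNA is made from its own promoter between coding genes and is often, but not always, spliced like a messenger RNA, and holds no long reading frame. Most are known to be made at low level and in few cell types, while a few, such as Malat1 and Neat1, are abundant nuclear RNAs in almost every tissue. Some are known to matter for lipid handling in liver: C730036E19Rik, also called lncLSTR, is a liver-enriched mouse RNA that affects the clearance of plasma triglyceride.

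The label lincRNA was checked against 2 other annotations. Of the 101 members, 99 had the same type in GENCODE M21, and 12 had 1 exon there. In RefSeq, matched by symbol, GENCODE name or synonym, 62 were noncoding RNAs, 5 were protein-coding genes, 3 were pseudogenes, 1 was a transcribed pseudogene and 30 had no match. The 5 coding ones were Tmem250-ps, Gm37494, 1810058I24Rik, D930016D06Rik and Gm46430. The intergenic part of the name did not hold for all: 19 members overlapped a coding gene in GENCODE M21, 5 of them on the same strand. Whether the authors' counting used strand was not given in the sources used here, so reads of overlapping genes cannot be told apart.

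Library totals ran between 15888436 and 29469645 estimated counts, and the members took between 0.313% and 0.483% of them. The ribosomal RNA gene CT010467.1 took between 0.637% and 14.6% of a library. In a principal component analysis of all genes, HFD knockout 1 and chow wild type 3 stood apart from their groups on the third and the second component. The numbers in the library titles form separate series for the 2 diets, and what they mark is not labelled. The effect of diet cannot be told apart from that of the series.

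Members spanned a wide range of levels. Levels in CPM, counts relative to library totals scaled by the TMM method, averaged over the 4 groups ran between 2.55 for Gm40770 and 1860 for Malat1, with a median of 6.10. Malat1 alone made up 45.6% of all member counts, and the 10 most counted members made up 80.8%. After Malat1 came Gm26917 with 5.68%, Gm42418 with 5.61%, 2900097C17Rik with 5.20%, Neat1 with 4.80% and Gm26825 with 4.67%. Per kilobase of exon, levels ran between 0.198 and 266 CPM, with a median of 2.74.

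**Figure D1:**
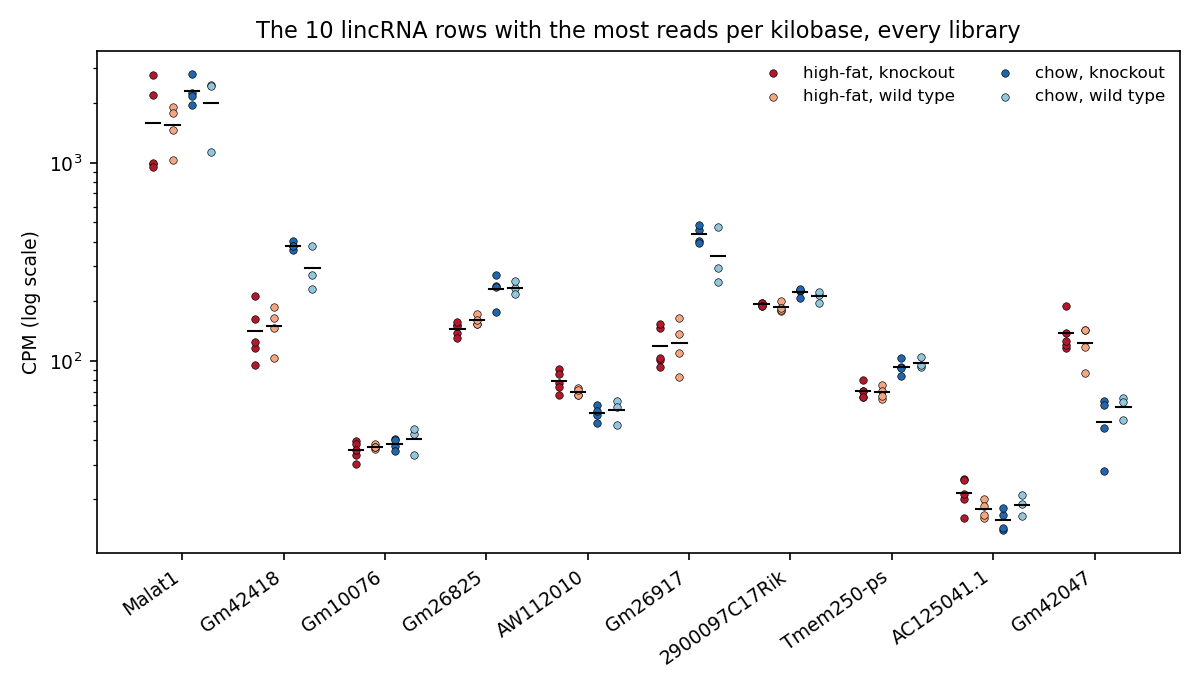
CPM on a log scale of the 10 members with the most CPM per kilobase of exon, with 1 point per library, coloured by diet and genotype, and a bar at each group mean. Malat1 lies above the others, its points in HFD knockout libraries spread between 953 and 2780 CPM, while 2900097C17Rik stays between 179 and 230 CPM in every library.

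Malat1, a nuclear RNA of splicing speckles on chromosome 19 (chr19:5795690-5802672, mm10), had 2780, 983, 1000, 2200 and 953 CPM in HFD knockout libraries and 1470, 1910, 1780 and 1030 CPM in HFD wild-type libraries. It had 2260, 1950, 2820 and 2170 CPM in chow knockout libraries and 2460, 2440 and 1130 CPM in chow wild-type libraries. The groups overlapped, and 3 of them held both high and low libraries. The diet difference on the log2 scale was -0.54 ± 0.35 (SE) in knockout (edgeR adjusted p = 0.269) and -0.38 ± 0.40 in wild type (edgeR adjusted p = 0.523). Without HFD knockout 1 and chow wild type 3, chosen after seeing the data, the value in knockout was -0.82 (edgeR adjusted p = 0.0391).

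Low Malat1 went with little ribosomal RNA. The share of counts on CT010467.1 was 12.3%, 3.56%, 1.13%, 11.9% and 0.637% in HFD knockout libraries, and 5.40%, 9.99%, 10.3% and 1.36% in HFD wild-type libraries. It was 14.4%, 14.6%, 11.3% and 14.1% in chow knockout libraries, and 11.3%, 13.3% and 2.54% in chow wild-type libraries. The 5 libraries with the smallest shares, from 3 of the 4 groups, were the ones with Malat1 at or under 1130 CPM. With this share added to the edgeR fit after seeing the data, Malat1 was higher by 0.34 ± 0.05 on the log2 scale per doubling of the share (edgeR adjusted p = 0.0037).

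Across the members, 2 of 101 passed in that test, Malat1 and Gm42418 (0.20 ± 0.04, edgeR adjusted p = 0.0437), against 0.196% of all 16830 genes tested. Gm42418 overlaps CT010467.1 on the other strand, so its slope is not independent of that share. Gm26917 (0.18 ± 0.05, edgeR adjusted p = 0.222) lies next to Gm42418 at the same locus with ribosomal RNA sequence. The slopes of both are descriptions only. An unadjusted p under 0.05 was found for 14 members (13.9%), 12 of them with more RNA at a higher share, and for 982 of all genes (5.83%). Of these 14, Gm26584 had the steepest slope, 0.65 ± 0.13 (edgeR adjusted p = 0.0921), and 1810008I18Rik the most negative, -0.17 ± 0.04 (edgeR adjusted p = 0.171). With the share in the fit, the Malat1 diet difference in knockout was 0.03 (edgeR adjusted p = 0.929), of the other sign.

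**Figure D2:**
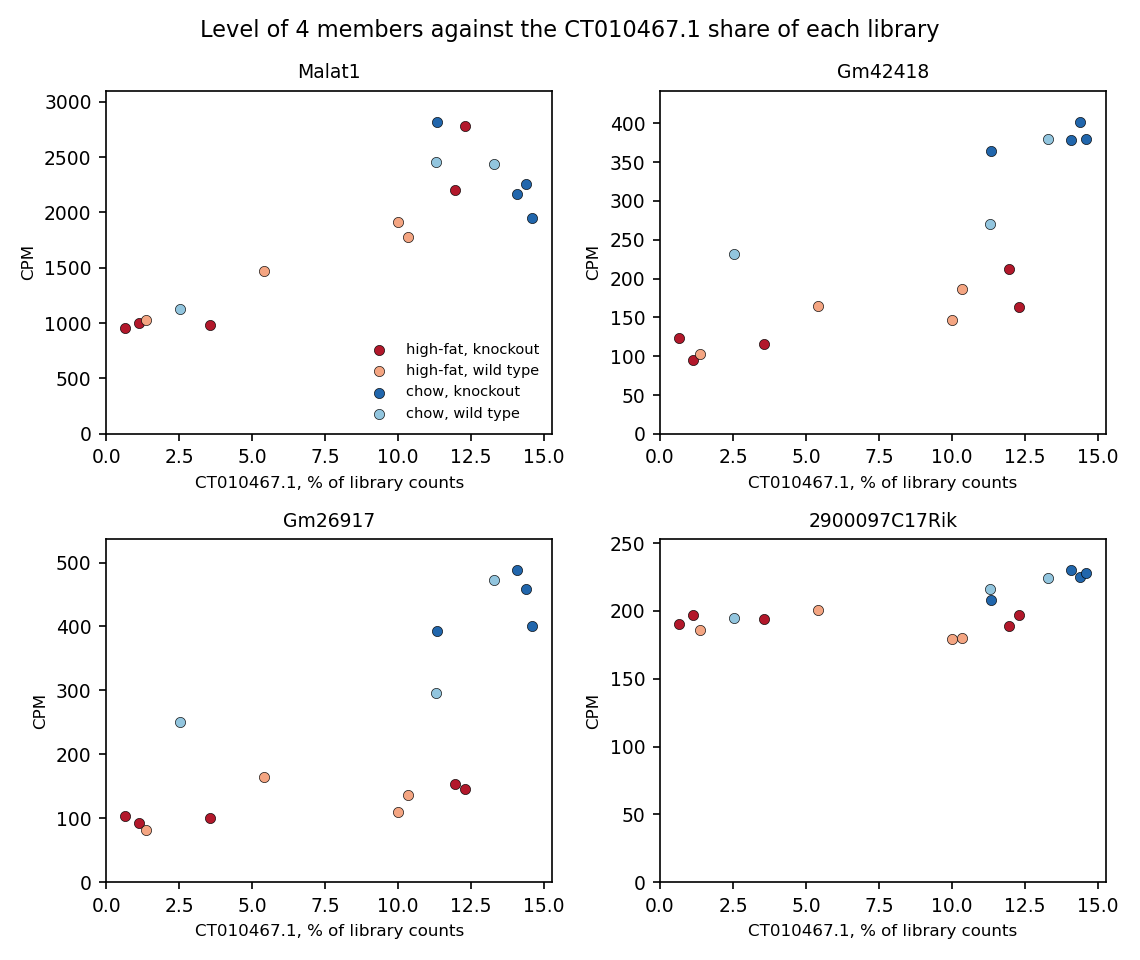
CPM of 4 members (y axis) against the percentage of library counts on the ribosomal RNA gene CT010467.1 (x axis), with 1 point per library, coloured by diet and genotype. Malat1 lies at or under 1130 CPM in the 5 libraries with the smallest shares, while Gm42418 and Gm26917 are also lower on HFD at a like share, and 2900097C17Rik is nearly level.

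Many members differed between diets. In knockout livers, 19 of 101 members rose and 21 fell on HFD relative to chow, 39.6% of members against 33.6% of all genes tested (17.4% higher and 16.2% lower). In wild-type livers, 15 rose and 20 fell, 34.7% of members against 29.4% of all genes (15.2% higher and 14.2% lower). These shares lay near the background. The median log2 fold change of the members was -0.11 in knockout and -0.16 in wild type, beside -0.01 in knockout and -0.02 in wild type over all genes. Members were called when the edgeR adjusted p over all genes was under 0.05. Of all 455 lincRNA rows that could be tested, less counted ones included, 28.1% were called in knockout and 20.4% in wild type.

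The 2 genotypes shared most calls. In all, 30 members passed in the same direction in both, 14 higher and 16 lower, against 21.5% of all genes. Those 14 were 73.7% of the members that rose in knockout and 93.3% of those that rose in wild type. The 16 were 76.2% of the members that fell in knockout and 80.0% in wild type. Most calls were shared over all genes too. There, 3613 genes passed in the same direction in both, of 5650 called in knockout and 4946 in wild type. No member passed in opposite directions, and 93 of 101 had the same sign. These counts were not made over all genes. Libraries did not overlap between diets for 31 members in knockout, against 26.5% of all genes, and for 39 in wild type, against 36% of all genes.

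The balance of higher and lower calls depended on the scaling and on the ribosomal RNA share. With library totals only and no TMM, added after seeing the data, the median over all genes moved to 0.32 in knockout and 0.24 in wild type. Then 35 members were higher and 5 lower in knockout, 87.5% higher in place of 47.5%. In wild type, 22 were higher and 6 lower, 78.6% higher in place of 42.9%. Calls over all genes moved the same way. In knockout, 6927 of 7729 were higher, in place of 2922 of 5650. In wild type, 4748 of 5457 were higher, in place of 2564 of 4946. With the CT010467.1 share in the fit, 16 members were higher and 13 lower in knockout, 55.2% higher, and 14 were higher and 21 lower in wild type, 40.0% higher. Over all genes, 2087 of 3847 calls were then higher in knockout and 2499 of 4819 in wild type. Directions below are therefore relative to the median gene under TMM.

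**Figure D3:**
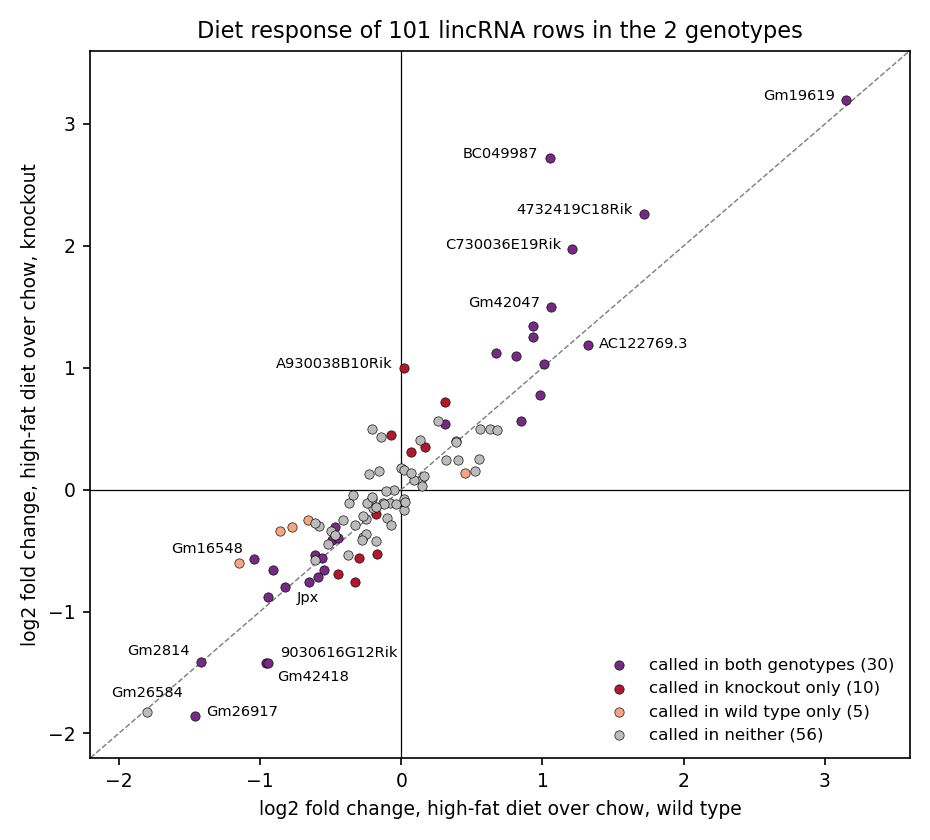
Log2 fold change of HFD over chow in knockout (y axis) against wild type (x axis) for 101 members, coloured by the genotypes in which the edgeR adjusted p was under 0.05, with a dashed line of equal change. The 30 members called in both lie at the lower left and upper right, and Gm19619 is at 3.20 in knockout and 3.15 in wild type.

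Gm19619, on chromosome 5 (chr5:91257571-91283421, minus strand), rose the most in both genotypes. It had 9.83, 14.8, 14.2, 18.4 and 14.1 CPM in HFD knockout livers, against 1.25, 1.08, 2.69 and 1.41 CPM in chow knockout livers. It had 11.7, 17.4, 15.7 and 12.2 CPM in HFD wild-type livers, against 1.83, 1.81 and 1.12 CPM in chow wild-type livers. Every HFD library lay above every chow library. The log2 fold changes were 3.20 ± 0.25 in knockout (edgeR adjusted p = 1.1e-07) and 3.15 ± 0.28 in wild type (edgeR adjusted p = 7.5e-07).

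C730036E19Rik, the triglyceride-related lncLSTR named above (chr1:151138034-151142345, plus strand), rose as well. HFD knockout livers had 31.3, 19.8, 23.7, 20.8 and 22.4 CPM, against 4.73, 4.57, 6.44 and 8.26 CPM in chow knockout livers. HFD wild-type livers had 19, 27.8, 22.1 and 20.9 CPM, against 12.3, 6.64 and 10 CPM in chow wild-type livers. The diets did not overlap in either genotype. Its log2 fold changes were 1.97 ± 0.21 in knockout (edgeR adjusted p = 3.3e-06) and 1.21 ± 0.23 in wild type (edgeR adjusted p = 0.00073).

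BC049987 (chr9:44670453-44672238, minus strand) lies 994 bases from Treh, the gene of trehalase. HFD knockout livers had 8.24, 6.23, 15.5, 8.82 and 10.2 CPM, against 0.978, 0.646, 1.49 and 2.78 CPM in chow knockout livers. HFD wild-type livers had 9.17, 8.10, 9.05 and 6.32 CPM, against 3.58, 3.84 and 4.44 CPM in chow wild-type livers. The diets did not overlap, and the gap was wider in knockout, where chow libraries were lowest. The log2 fold changes were 2.72 ± 0.33 in knockout (edgeR adjusted p = 1.5e-05) and 1.05 ± 0.34 in wild type (edgeR adjusted p = 0.0287). The call in wild type was lost when HFD wild type 1, 2 or 3 or any chow wild-type library was left out, at edgeR adjusted p between 0.0521 and 0.0929, and also without HFD knockout 1 and chow wild type 3 (0.0563).

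The RNA 4732419C18Rik, on chromosome 8, overlaps the coding row Gm20388 on the other strand. It had 5.76, 5.99, 9.44, 6.91 and 6.28 CPM in HFD knockout livers, against 0.869, 0.689, 1.91 and 2.34 CPM in chow knockout livers. Wild-type livers had 6.34, 5.6, 5.68 and 6.22 CPM on HFD, against 1.88, 1.63 and 1.89 CPM on chow. Neither genotype showed overlap of the diets. Log2 fold changes were 2.26 ± 0.27 in knockout (edgeR adjusted p = 6.6e-06) and 1.72 ± 0.30 in wild type (edgeR adjusted p = 0.00033). Gm20388 itself fell in knockout (log2 -0.48, edgeR adjusted p = 0.0155).

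Gm42047, also on chromosome 8, lies within Gm20388 on the same strand, so its reads could be shared with that gene. It was the most abundant of the risers, at 139 ± 30.1 CPM (SD, n = 5) in HFD knockout livers and 49.1 ± 16.1 CPM (n = 4) in chow knockout livers. In wild type it had 123 ± 26.8 CPM on HFD (n = 4) and 58.8 ± 7.67 CPM on chow (n = 3). The log2 fold changes were 1.5 ± 0.23 in knockout (edgeR adjusted p = 0.00022) and 1.06 ± 0.26 in wild type (edgeR adjusted p = 0.0071).

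AC122769.3, on chromosome 15, had log2 fold changes of 1.19 ± 0.25 in knockout (edgeR adjusted p = 0.0012) and 1.32 ± 0.29 in wild type (edgeR adjusted p = 0.0023). A further 7 members rose in both genotypes and have no role given here. In knockout, log2 fold changes were 1.34 for AC153370.2, 1.25 for 1810008I18Rik, 1.12 for Gm5524, 1.1 for AC156572.1, 1.03 for Gm40770, 0.78 for Gm15408 and 0.56 for AU020206. In wild type they were 0.93 for AC153370.2, 0.93 for 1810008I18Rik, 0.67 for Gm5524, 0.81 for AC156572.1, 1.01 for Gm40770, 0.98 for Gm15408 and 0.85 for AU020206. RefSeq lists AC153370.2 as a pseudogene, so its counts are uncertain where reads fit the parent gene. Gm40770 lost its call in wild type without HFD wild type 1 (edgeR adjusted p = 0.069) or chow wild type 1 (0.12).

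AW112010, an RNA induced in stimulated mouse macrophages, was the last of the 14 and rose by less. It had 77.4, 67.6, 90.7, 85.8 and 73.8 CPM in HFD knockout livers, against 48.4, 53.1, 60.1 and 56.2 CPM in chow knockout livers. HFD wild-type livers had 67.3, 72.9, 67.6 and 71.7 CPM, against 63.1, 47.5 and 58.8 CPM in chow wild-type livers. The diets did not overlap, although the gap in wild type was narrow. Log2 fold changes were 0.54 ± 0.10 in knockout (edgeR adjusted p = 0.00032) and 0.31 ± 0.11 in wild type (edgeR adjusted p = 0.0407). The call in wild type was lost without HFD wild type 2, 3 or 4 or chow wild type 2 or 3, at edgeR adjusted p between 0.0547 and 0.223. It was also lost with the CT010467.1 share in the fit (edgeR adjusted p = 0.0521) and without HFD knockout 1 and chow wild type 3 (0.0564).

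**Figure D4:**
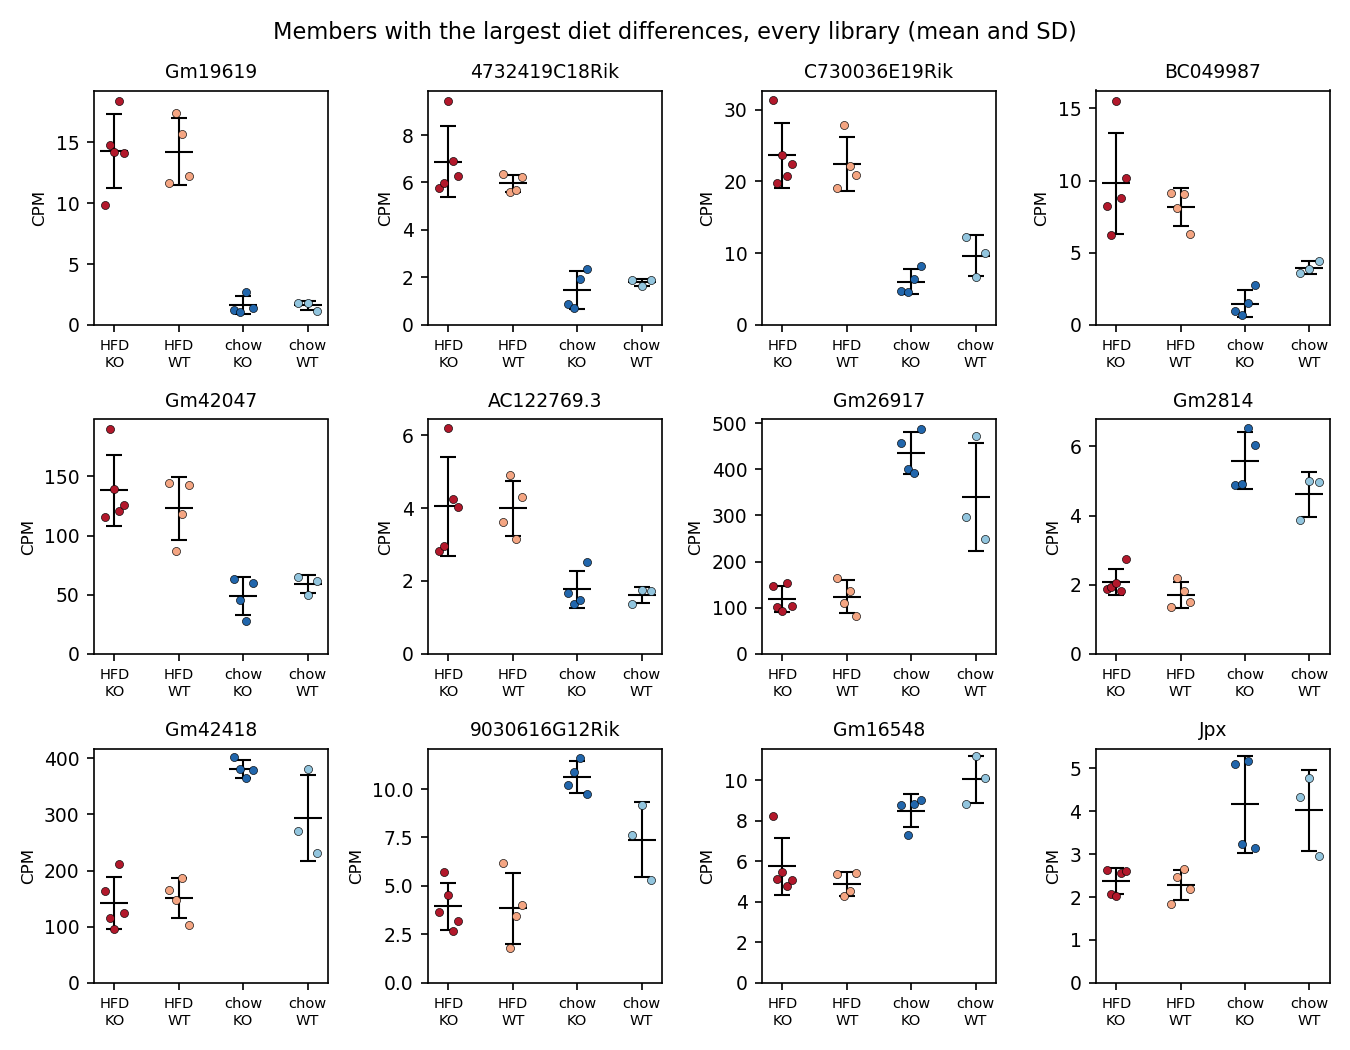
CPM of 12 members with large diet differences, with 1 point per library and bars for the mean and SD of each group (HFD knockout, HFD wild type, chow knockout and chow wild type). HFD libraries lie above chow libraries in the first 6 panels and mostly below them in the other 6.

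The pair Gm26917 and Gm42418 fell together on HFD. They lie next to each other on the plus strand of chromosome 17 (chr17:39843013-39846341 and chr17:39846958-39848788), at a locus with ribosomal RNA sequence. RefSeq lists Gm42418 as a synonym of the pseudogene Rn18s-rs5, and CT010467.1 overlaps it on the other strand. Reads of the 2 genes and of ribosomal RNA may therefore be split by the counting.

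Gm26917 had 146, 101, 92.7, 154 and 104 CPM in HFD knockout livers, against 458, 401, 393 and 488 CPM in chow knockout livers. The wild-type values were 165, 110, 137 and 82.5 CPM on HFD, against 296, 473 and 250 CPM on chow. No HFD library reached the lowest chow library. Its log2 fold changes were -1.86 ± 0.22 in knockout (edgeR adjusted p = 2.5e-05) and -1.46 ± 0.25 in wild type (edgeR adjusted p = 0.00062). With the CT010467.1 share in the fit they were -1.51 in knockout (edgeR adjusted p = 5.8e-05) and -1.36 in wild type (edgeR adjusted p = 5.2e-05).

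Gm42418 had 163, 116, 95.1, 212 and 124 CPM in HFD knockout livers, against 402, 380, 364 and 379 CPM in chow knockout livers. Levels in wild type were 165, 147, 187 and 103 CPM on HFD, against 270, 380 and 232 CPM on chow. Here too the diets did not overlap. The log2 fold changes were -1.42 ± 0.22 in knockout (edgeR adjusted p = 0.0002) and -0.96 ± 0.25 in wild type (edgeR adjusted p = 0.0089). Without chow wild type 2 the wild-type value was -0.74 (edgeR adjusted p = 0.0566), and with the CT010467.1 share in the fit the values were -1.05 in knockout and -0.87 in wild type.

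Gm2814 (chr8:10898169-10900558, minus strand) fell to similar levels in both genotypes. It had 1.87, 1.94, 2.06, 1.81 and 2.74 CPM in HFD knockout livers, against 4.89, 4.91, 6.52 and 6.05 CPM in chow knockout livers. Wild-type livers had 1.34, 2.19, 1.81 and 1.49 CPM on HFD, against 3.86, 5.01 and 4.97 CPM on chow. All HFD libraries lay below all chow libraries. The log2 fold changes were -1.41 ± 0.18 in knockout (edgeR adjusted p = 1.2e-05) and -1.42 ± 0.21 in wild type (edgeR adjusted p = 7.3e-05).

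The RNA 9030616G12Rik (chr10:128971197-128978115, plus strand) had 3.65, 5.72, 4.52, 2.65 and 3.17 CPM in HFD knockout livers, against 10.2, 10.9, 11.6 and 9.76 CPM in chow knockout livers. The wild-type values were 6.19, 1.77, 3.45 and 3.99 CPM on HFD, against 7.62, 9.20 and 5.33 CPM on chow. The diets were apart in knockout and overlapped in wild type. Log2 fold changes were -1.42 ± 0.27 in knockout (edgeR adjusted p = 0.00067) and -0.94 ± 0.31 in wild type (edgeR adjusted p = 0.031).

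Jpx, known in mouse as an activator of Xist in X inactivation, fell as well (chrX:103493558-103506425, plus strand). It had 2.62, 2.08, 2.03, 2.55 and 2.61 CPM in HFD knockout livers, against 5.11, 3.23, 5.17 and 3.14 CPM in chow knockout livers. Levels in wild type were 1.83, 2.47, 2.65 and 2.18 CPM on HFD, against 4.33, 4.78 and 2.96 CPM on chow. The diets did not overlap in either genotype. Log2 fold changes were -0.80 ± 0.20 in knockout (edgeR adjusted p = 0.0046) and -0.82 ± 0.23 in wild type (edgeR adjusted p = 0.0112). With library totals only both calls were lost (edgeR adjusted p = 0.0559 in knockout and 0.0712 in wild type). The call in knockout was also lost with the CT010467.1 share in the fit (edgeR adjusted p = 0.0528), and the call in wild type without chow wild type 2 (edgeR adjusted p = 0.0655). Xist itself, a lincRNA row, summed to only 90.4 estimated counts over the 16 libraries and was not a member.

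Among abundant members, Gm26825 and Tmem250-ps also fell. Gm26825 had 146 ± 10.9 CPM (SD, n = 5) in HFD knockout and 230 ± 39.1 CPM (n = 4) in chow knockout livers, and 160 ± 8.90 CPM (n = 4) in HFD wild-type and 234 ± 16.7 CPM (n = 3) in chow wild-type livers. Its log2 fold changes were -0.66 ± 0.10 in knockout (edgeR adjusted p = 5.8e-05) and -0.55 ± 0.11 in wild type (edgeR adjusted p = 0.0012). Tmem250-ps had -0.41 ± 0.08 in knockout (edgeR adjusted p = 0.00066) and -0.49 ± 0.09 in wild type (edgeR adjusted p = 0.00049). With library totals only, Gm26825 lost its call in wild type (edgeR adjusted p = 0.0824), and Tmem250-ps lost its call in knockout (0.462) and in wild type (0.0838).

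The other 9 members that fell in both genotypes were Gm16548, described with its neighbour Selp, and 8 with smaller values, among them 9030622O22Rik, which lies 2673 bases from Foxa2, the gene of a hepatocyte transcription factor. In knockout, log2 fold changes were -0.88 for Gm43597, -0.76 for 9030622O22Rik, -0.72 for Gm20045, -0.66 for Gm38102, -0.56 for Lppos, -0.54 for 4932422M17Rik, -0.40 for AC079680.2 and -0.31 for Gm37494. In wild type they were -0.94 for Gm43597, -0.65 for 9030622O22Rik, -0.59 for Gm20045, -0.91 for Gm38102, -0.56 for Lppos, -0.61 for 4932422M17Rik, -0.45 for AC079680.2 and -0.47 for Gm37494. In knockout, 9030622O22Rik and Gm43597 lost their calls with the CT010467.1 share in the fit (edgeR adjusted p = 0.0743 for 9030622O22Rik and 0.0637 for Gm43597). The knockout calls of 9030622O22Rik (edgeR adjusted p = 0.0581), Gm43597 (0.0652) and Gm20045 (0.0533) were lost with library totals only. AC079680.2 overlaps the member C730027H18Rik on the same strand, and GENCODE M21 gives both that name, so reads may be split between them. C730027H18Rik had -0.24 in knockout and -0.25 in wild type and was not called.

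Falls called in wild type alone were Gm26883 (-1.15), Gm34667 (-0.86), 4933404O12Rik (-0.77) and AI480526 (-0.66). Gm26883 lost its call without chow wild type 2 (edgeR adjusted p = 0.0614). Gm34667 lost it without HFD wild type 2, 3 or 4 or chow wild type 2 or 3, at edgeR adjusted p between 0.0538 and 0.214. Its call was lost as well by limma voom (adjusted p = 0.0683), with no filter (0.051), with library totals only (0.134) and without HFD knockout 1 and chow wild type 3 (0.229). Calls of 4933404O12Rik (edgeR adjusted p = 0.0606) and AI480526 (0.121) were lost with library totals only. Gm26809 was the 1 member that rose in wild type alone (0.45, edgeR adjusted p = 0.0333, and 0.14 in knockout).

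Among the falls called in knockout alone, 2610037D02Rik fell (-0.76, edgeR adjusted p = 0.0102) and was not called with the CT010467.1 share in the fit (-0.45, edgeR adjusted p = 0.162) or with library totals only (-0.44, edgeR adjusted p = 0.0894). Gm26584, chosen after its values were seen, had large log2 values of -1.82 in knockout and -1.80 in wild type that did not pass (edgeR adjusted p = 0.0523 in knockout and 0.107 in wild type). Its CPM ran between 1.34 and 14.4 in HFD knockout livers, against 10.7 to 27.1 in chow knockout livers. It was highest in HFD knockout 1 and 4, the HFD knockout libraries with the most CT010467.1.

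Markers of several liver cell types also moved with diet. The summed level of 12 hepatocyte markers was 76000 to 94100 CPM in HFD knockout and 104000 to 116000 CPM in chow knockout libraries, and 74800 to 92300 CPM in HFD wild-type and 104000 to 111000 CPM in chow wild-type libraries. Of these 12, 7 fell in knockout and 9 in wild type. Summed Kupffer and macrophage markers had 406 to 763 CPM in HFD knockout and 310 to 362 CPM in chow knockout libraries, and 419 to 775 CPM in HFD wild-type and 169 to 333 CPM in chow wild-type libraries; 5 of 12 rose in knockout and 9 in wild type. Of 8 lipid-associated macrophage markers, 7 rose in knockout and 7 in wild type. Of 11 stellate cell and myofibroblast markers, 9 rose in knockout and 10 in wild type. Fewer cells of a type and less RNA per cell cannot be told apart in whole liver, and the part of these shifts in the lincRNA results was not tested. Summed sinusoidal endothelium markers had 199 to 265 CPM in HFD knockout and 265 to 306 CPM in chow knockout libraries, where 4 of 11 fell. They had 237 to 306 CPM in HFD wild-type and 196 to 244 CPM in chow wild-type libraries, where 6 of 11 rose. T and NK cell markers had 2.38 to 6.31 CPM in HFD knockout and 2.83 to 5.67 CPM in chow knockout libraries, and 2.95 to 5.98 CPM in HFD wild-type and 1.48 to 4.37 CPM in chow wild-type libraries. Of 10, 0 passed in knockout and 1 rose in wild type, and Gzma was at 0 in some libraries.

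Promoter sequence was available from RefSeq (GRCm38.p6) for 54 of the 101 members, as windows from 250 bases before to 50 bases after the start. The windows of 3 risers and 2 fallers are shown because these members moved together with diet in both genotypes. Capitals mark matches on either strand to 1 of 11 motifs searched, and a window with no match is in lower case throughout.
Gm19619 (chr5:91283027-91283326, minus strand): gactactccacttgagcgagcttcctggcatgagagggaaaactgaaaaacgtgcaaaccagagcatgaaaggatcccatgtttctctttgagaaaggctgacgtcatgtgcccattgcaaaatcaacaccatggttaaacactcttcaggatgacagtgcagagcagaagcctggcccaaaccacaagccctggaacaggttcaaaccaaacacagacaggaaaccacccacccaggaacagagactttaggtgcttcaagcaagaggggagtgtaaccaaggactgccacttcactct
BC049987 (chr9:44672211-44672510, minus strand): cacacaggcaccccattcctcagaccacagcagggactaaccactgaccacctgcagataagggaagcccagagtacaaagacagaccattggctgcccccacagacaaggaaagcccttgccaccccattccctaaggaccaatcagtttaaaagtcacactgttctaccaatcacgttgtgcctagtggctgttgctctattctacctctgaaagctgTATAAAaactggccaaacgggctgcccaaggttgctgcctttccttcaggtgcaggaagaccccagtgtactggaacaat
C730036E19Rik (chr1:151137784-151138083, plus strand): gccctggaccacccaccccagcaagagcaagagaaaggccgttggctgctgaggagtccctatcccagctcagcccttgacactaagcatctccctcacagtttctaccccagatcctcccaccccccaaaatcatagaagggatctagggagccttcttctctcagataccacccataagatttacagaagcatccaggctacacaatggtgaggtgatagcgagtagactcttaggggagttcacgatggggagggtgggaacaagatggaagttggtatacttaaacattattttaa
9030616G12Rik (chr10:128970947-128971246, plus strand): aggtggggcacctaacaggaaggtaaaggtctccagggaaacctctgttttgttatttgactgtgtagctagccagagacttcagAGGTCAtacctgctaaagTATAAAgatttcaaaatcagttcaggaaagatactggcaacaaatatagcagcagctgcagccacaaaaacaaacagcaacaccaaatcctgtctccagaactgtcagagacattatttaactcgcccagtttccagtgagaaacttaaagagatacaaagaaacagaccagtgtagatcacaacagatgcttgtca
Jpx (chrX:103493308-103493607, plus strand): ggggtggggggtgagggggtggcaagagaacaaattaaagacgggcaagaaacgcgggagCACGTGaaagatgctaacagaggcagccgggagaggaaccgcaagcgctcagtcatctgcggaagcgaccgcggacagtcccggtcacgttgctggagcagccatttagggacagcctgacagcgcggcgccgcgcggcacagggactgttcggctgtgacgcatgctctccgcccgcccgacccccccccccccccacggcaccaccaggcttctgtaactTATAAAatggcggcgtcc

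The RefSeq start of Gm19619 lies 345 bases from its GENCODE M21 limit, so its window may miss other starts. The TATA box letters TATAAA stand in capitals for BC049987, 9030616G12Rik and Jpx. They lie before the start in BC049987 and 9030616G12Rik and after it in Jpx, since the search did not use position. The E-box CACGTG is marked in Jpx and the nuclear receptor half-site AGGTCA in 9030616G12Rik. The matches in these 5 windows do not overlap each other.

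Across all windows, TATAAA was in 10 of 54 member windows (18.5%), against 13.6% of all 32851 promoter windows of the same length. AGGTCA was in 9 (16.7%, against 16.3%) and CACGTG in 8 (14.8%, against 7.15%). The sterol regulatory element TCACNCCAC was in 1 (1.85%, against 1.24%), and direct repeats of AGGTCA spaced by 1 or by 4 bases were in none (against 0.0396% and 0.0152%). The STAT site TTCNNNGAA was in 3 (5.56%, against 8.30%), the AP-1 site TGANTCA in 4 (7.41%, against 7.81%) and the forkhead site TGTTTAC in 3 (5.56%, against 3.65%). The C/EBP site TTGCGCAA and the ETS site AGAGGAAG were in none (against 0.183% and 4.55%). A match describes letters and shows no binding.

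CpG pairs were counted in the same windows. The median window held 3 CpG pairs among the 10 members with a window that rose in both genotypes and 13 among the 7 that fell in both. Over all members with a window the median was 11, and over all promoter windows 7. Jpx had 27 and a GC content of 64.7%, while 9030616G12Rik, also a faller, had 1 and 42.0%. With so few windows in a class this is a description only.

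Distance to coding genes was compared between the same classes. The 14 members that rose in both genotypes had a median gap of 25104 bases to the nearest coding gene of the table, the 16 that fell had 7094 bases, and the 56 called in neither had 3630 bases. Over all members the median was 4460 bases. A gap of at most 1000 bases, overlap included, was found for 3 of the 14, 3 of the 16 and 20 of the 56. Among all members, 12 started close to a coding gene on the other strand, with a gap of 1 to 1000 bases. The median level per kilobase was 3.25 CPM for the 14, 4.65 CPM for the 16 and 2.22 CPM for the 56.

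Coding neighbours moved the same way for some of the largest responders. Btc, which encodes the growth factor betacellulin, lies 73839 bases from Gm19619 on the same strand. It had 6.57 ± 0.680 CPM (SD, n = 5) in HFD knockout and 2.15 ± 0.597 CPM (n = 4) in chow knockout livers, and 6.82 ± 1.51 CPM (n = 4) in HFD wild-type and 2.76 ± 0.0381 CPM (n = 3) in chow wild-type livers. Its log2 fold changes were 1.62 ± 0.19 in knockout (edgeR adjusted p = 5.1e-06) and 1.30 ± 0.21 in wild type (edgeR adjusted p = 0.00017).

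Irs2, an adaptor of the insulin receptor, lies 84122 bases from Gm2814 and fell with it. Its log2 fold changes were -1.23 ± 0.24 in knockout (edgeR adjusted p = 0.0011) and -1.16 ± 0.27 in wild type (edgeR adjusted p = 0.0048). Chic1, at 97465 bases from Jpx, had -1.18 in knockout (edgeR adjusted p = 0.0035) and -1.95 in wild type (edgeR adjusted p = 0.00028). Mettl7b, at 10208 bases from 9030616G12Rik, had -0.47 in knockout (edgeR adjusted p = 0.00054) and -0.58 in wild type (edgeR adjusted p = 0.00031). Setd1b, a histone H3 lysine 4 methyltransferase gene, lies 526 bases from AI480526 and 623 bases from 4932422M17Rik. Setd1b had -1.0 in knockout (edgeR adjusted p = 9.1e-07) and -1.05 in wild type (edgeR adjusted p = 2.9e-06), while AI480526 had -0.25 in knockout (edgeR adjusted p = 0.231) and -0.66 in wild type (edgeR adjusted p = 0.0098). The members 4932422M17Rik and Gm38102, which fell in both genotypes, lie within the span of AI480526 on the other strand. These 3 members are thus at 1 locus.

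Other pairs went apart. Gm16548 lies over Selp, an endothelial adhesion gene, and the clotting factor gene F5 on the other strand. Gm16548 had 8.24, 5.14, 5.49, 4.78 and 5.09 CPM in HFD knockout livers, against 8.80, 7.32, 8.85 and 9.05 CPM in chow knockout livers. Wild-type livers had 5.39, 4.28, 4.51 and 5.42 CPM on HFD, against 8.84, 11.2 and 10.1 CPM on chow. The diets did not overlap in wild type, and in knockout HFD knockout 1 lay within the chow range. Its log2 fold changes were -0.57 ± 0.15 in knockout (edgeR adjusted p = 0.0076) and -1.04 ± 0.17 in wild type (edgeR adjusted p = 0.00026). Those of Selp were 0.81 ± 0.21 in knockout (edgeR adjusted p = 0.007) and 1.73 ± 0.24 in wild type (edgeR adjusted p = 3.8e-05).

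Apob, the structural protein gene of very-low-density lipoprotein, lies 27586 bases from AC125041.1 and fell in both genotypes, at -0.67 in knockout (edgeR adjusted p = 0.00029) and -0.45 in wild type (edgeR adjusted p = 0.0173). AC125041.1 itself rose in knockout (0.45 ± 0.13, edgeR adjusted p = 0.0114) and had -0.07 ± 0.15 in wild type (edgeR adjusted p = 0.753).

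Over all members, a shared direction with the neighbour was not the rule. In knockout, 40 members were called, and the nearest coding gene passed in the same direction for 9, in the opposite direction for 8, not at all for 19 and was not tested for 4. In wild type, 35 were called, and the nearest coding gene passed in the same direction for 9, in the opposite direction for 2, not at all for 19 and was not tested for 5. A coding gene could count for more than 1 member: Gm20388 stood for both Gm42047 and 4732419C18Rik among the opposite pairs in knockout. Setd1b stood for both 4932422M17Rik and AI480526 among the same-direction pairs in wild type. The nearest gene could also be far: Phf3, opposite to Gm5524 in knockout, lies 2899942 bases from it. Among members that were not called, the neighbour passed with the member's sign for 19 of 61 and against it for 8 in knockout, and with it for 15 of 66 and against it for 5 in wild type.

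Neat1, the scaffold of nuclear paraspeckles and a neighbour of Malat1, had 153, 138, 204, 257 and 174 CPM in HFD knockout livers, against 104, 76.9, 172 and 172 CPM in chow knockout livers. The wild-type values were 160, 413, 189 and 193 CPM on HFD, against 116, 195 and 151 CPM on chow. The groups overlapped, and HFD wild type 2 stood highest. Log2 fold changes were 0.50 ± 0.32 in knockout (edgeR adjusted p = 0.259) and 0.63 ± 0.37 in wild type (edgeR adjusted p = 0.225). Frmd8, its coding neighbour at 4223 bases, rose by 0.68 in knockout (edgeR adjusted p = 0.00062) and 0.72 in wild type (edgeR adjusted p = 0.0014).

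Norad, listed as 2900097C17Rik and known to bind Pumilio proteins in the cytoplasm, had a coefficient of variation of 2.06% in HFD knockout livers, the lowest of the members there. It had 197, 194, 197, 189 and 190 CPM in HFD knockout livers, against 225, 228, 208 and 230 CPM in chow knockout livers. Levels in wild type were 201, 179, 180 and 186 CPM on HFD, against 216, 224 and 195 CPM on chow. The diets were apart in knockout and overlapped in wild type. It fell by 0.20 ± 0.06 in knockout (edgeR adjusted p = 0.0164), a call that was lost with the CT010467.1 share in the fit (-0.19, edgeR adjusted p = 0.0875). In wild type the value was -0.18 ± 0.07 (edgeR adjusted p = 0.0606). It passed there without HFD wild type 1 (edgeR adjusted p = 0.0338), without chow wild type 3 (0.0339), without HFD knockout 1 and chow wild type 3 (0.0371), and by DESeq2 (0.0279). With library totals only its values were of the other sign, 0.12 in knockout and 0.08 in wild type.

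The hosts of small nucleolar RNAs among the members, Snhg6, Snhg12 and Snhg20, did not pass in either genotype. Their log2 fold changes were -0.34 for Snhg6, -0.29 for Snhg12 and 0.14 for Snhg20 in knockout, and -0.50 for Snhg6, -0.07 for Snhg12 and 0.07 for Snhg20 in wild type (edgeR adjusted p between 0.0757 and 0.883). With library totals only, Snhg20 passed in knockout (0.47, edgeR adjusted p = 0.022). Epb41l4aos, at 2.82 to 3.99 CPM on HFD, had -0.22 in knockout and -0.27 in wild type, and 2310001H17Rik had 0.43 in knockout and -0.14 in wild type, none of which passed. With library totals only, 2310001H17Rik passed in knockout (0.74, edgeR adjusted p = 0.0103). Of 10 RNAs on the list of imprinted RNAs, 9 had a row in the table and 0 were members. H19, a lincRNA row, summed to 826 estimated counts. Kcnq1ot1 (8183) and Peg13 (3707) were above the limit but had another type in the table. The same held for Snhg11 (4189), which is also on the list of small nucleolar RNA hosts. Whether Snhg11 is imprinted was not checked here. Of 5 immune RNAs listed, 4 had a row and 0 were members, and of 7 liver or sterol RNAs 5 had a row and 2310001H17Rik was the 1 member. Of those listed, 0610005C13Rik (20680), Gm15441 (2795) and AI506816 (2108) were above the limit but had another type. The lists are not complete: the members AW112010 and C730036E19Rik, described above, are on neither.

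Members held 3 microRNA genes on their own strand. The spans of 6720427I07Rik, E130102H24Rik and Snhg20 hold let-7d, miR-101a and miR-6516. The mature forms from RefSeq (GRCm38.p6) are shown because a host RNA and its microRNA come from overlapping DNA, and capitals mark the seed, bases 2 to 8.
let-7d-5p: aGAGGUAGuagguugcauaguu
let-7d-3p: cUAUACGAccugcugccuuucu
miR-101a-3p: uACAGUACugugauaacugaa
miR-101a-5p: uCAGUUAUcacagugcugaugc
miR-6516-5p: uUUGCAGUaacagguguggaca
miR-6516-3p: uCAUGUAUgauacugcaaacag

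No 2 of these 6 seeds are alike, and none of the microRNAs was measured here. E130102H24Rik had 2.34, 1.94, 2.22, 2.34 and 2.02 CPM in HFD knockout livers, against 3.10, 3.40, 3.54 and 3.93 CPM in chow knockout livers. Wild-type livers had 2.14, 2.78, 2.27 and 2.66 CPM on HFD, against 2.78, 4.31 and 3.02 CPM on chow. The diets were apart in knockout, and in wild type they met at 2.78 CPM. It fell by 0.69 ± 0.16 in knockout (edgeR adjusted p = 0.0032, or 0.0815 with library totals only) and had -0.45 ± 0.19 in wild type (edgeR adjusted p = 0.078). The let-7d host 6720427I07Rik had -0.41 ± 0.18 in knockout (edgeR adjusted p = 0.0796) and -0.28 ± 0.21 in wild type (edgeR adjusted p = 0.326), and without chow knockout 4 it passed in knockout (-0.57, edgeR adjusted p = 0.014).

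The question of the study, what loss of miR-33 does to liver RNA, was asked of the same 101 members. On HFD, no member passed between knockout and wild type by edgeR, and none by DESeq2 or limma voom, against 0.00594% of all genes. An unadjusted p under 0.05 was found for 5 members by edgeR (4.95%), 5 by DESeq2 and 4 by voom, and for 641 of all genes (3.81%) by edgeR. Of the 101 log2 fold changes, 98 lay within 0.5 of 0, with a median SE of 0.18, between -0.67 for Gm26880 and 0.62 for Gm26669. Knockout and wild-type libraries did not overlap for 4 members, against 1.24% of all genes.

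On chow, no member passed by edgeR, DESeq2 or limma voom either, against 0.00594% of all genes by edgeR. An unadjusted p under 0.05 was found for 6 members (5.94%) by each of the 3 tools, and for 1001 of all genes (5.95%) by edgeR. The lowest adjusted p among members was 0.773 by edgeR, 0.108 by DESeq2 and 0.958 by voom. Here 95 members lay within 0.5 of 0, with a median SE of 0.21, and groups did not overlap for 5 members, against 5.62% of all genes. For the difference of the knockout effect between diets, 0 members passed by the 3 tools, against 0.0% of all genes by edgeR, and an unadjusted p under 0.05 was found for 5 members by edgeR (4.95%), 6 by DESeq2 and 6 by voom, and for 1110 of all genes (6.60%) by edgeR. A miss of the threshold does not show that the levels were alike.

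**Figure D5:**
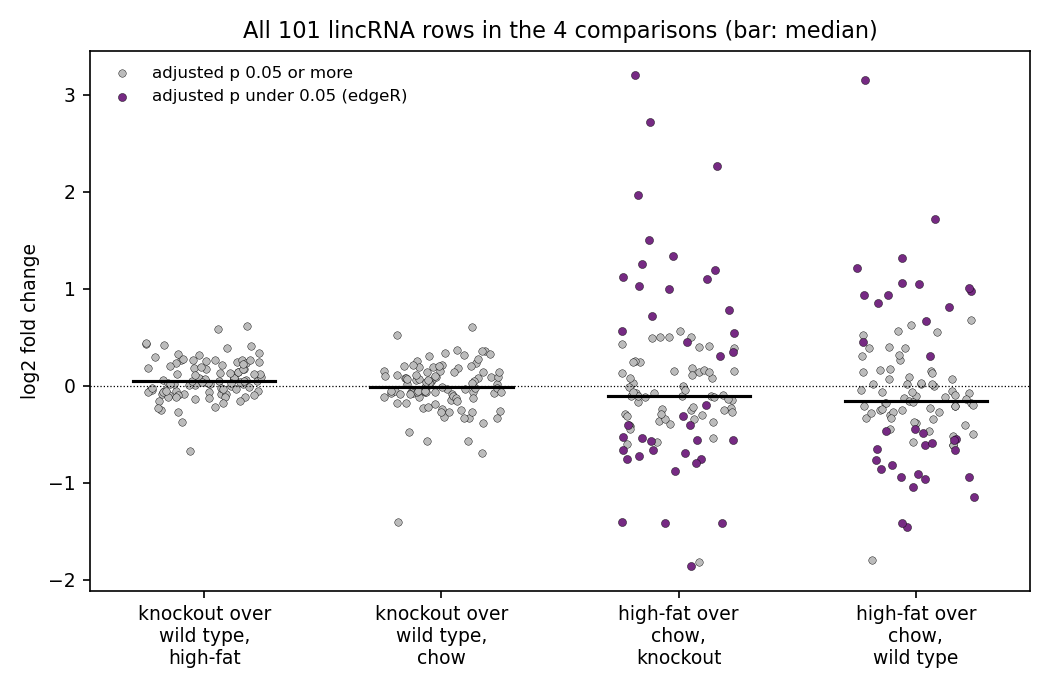
Log2 fold changes of all 101 members (y axis) in 4 comparisons, with 1 point per member, coloured where the edgeR adjusted p was under 0.05, and a bar at the median. No point is coloured in the 2 knockout comparisons, while 40 are coloured for diet in knockout and 35 for diet in wild type.

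The smallest p on chow belonged to BC049987, the riser described above. It had 0.978, 0.646, 1.49 and 2.78 CPM in chow knockout livers, against 3.58, 3.84 and 4.44 CPM in chow wild-type livers. The groups did not overlap. Its log2 fold change was -1.41 ± 0.38 on chow (unadjusted p = 0.0018, edgeR adjusted p = 0.773) and 0.26 ± 0.28 on HFD (edgeR adjusted p = 1). The difference between diets was 1.67 ± 0.47 (edgeR adjusted p = 0.663).

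C730036E19Rik had 4.73, 4.57, 6.44 and 8.26 CPM in chow knockout livers, against 12.3, 6.64 and 10 CPM in chow wild-type livers, with an overlap of 1 library each way. Its value on chow was -0.69 ± 0.23 (unadjusted p = 0.0087, edgeR adjusted p = 0.773), and on HFD 0.07 ± 0.19. The difference between diets was 0.76 ± 0.30 (edgeR adjusted p = 0.697). The other 3 of the 5 smallest p on chow belonged to 4632415L05Rik (-0.33 ± 0.13), 4632404H12Rik (-0.33 ± 0.13) and 5031425E22Rik (0.34 ± 0.15), with edgeR adjusted p between 0.773 and 0.827.

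On HFD the smallest p belonged to Gm26669, which lies over Zfp36l1 on the other strand. It had 9.13, 7.72, 6.65, 4.74 and 4.86 CPM in HFD knockout livers, against 3.52, 4.66, 5.05 and 3.88 CPM in HFD wild-type livers. The groups overlapped at about 5 CPM. Its log2 fold change was 0.62 ± 0.24 (unadjusted p = 0.0204, edgeR adjusted p = 1). Gm26880 had 3.51, 2.04, 1.55, 3.73 and 1.95 CPM in HFD knockout livers, against 3.32, 4.73, 3.79 and 4.25 CPM in HFD wild-type livers, and its knockout difference was -0.67 ± 0.27 on the log2 scale (edgeR adjusted p = 1).

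Gm5524 had 31.9, 35.1, 34.5, 31.3 and 31.4 CPM in HFD knockout livers, against 27.1, 27.8, 29.5 and 24.4 CPM in HFD wild-type livers. No library overlapped, but the log2 fold change was only 0.27 ± 0.12 (edgeR adjusted p = 1). 1700001L05Rik (0.44 ± 0.21) and AC125041.1 (0.27 ± 0.13) made up the rest of the 5. A930038B10Rik was among the 5 smallest p for the difference between diets (0.98 ± 0.32, edgeR adjusted p = 0.664). It rose on HFD in knockout by 1.00 ± 0.22 (edgeR adjusted p = 0.0018) and had 0.02 ± 0.24 in wild type.

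Spread between libraries of 1 group bounds what could be seen. The median coefficient of variation of the members was 18% in HFD knockout, 15% in HFD wild-type, 17% in chow knockout and 15.7% in chow wild-type libraries. For all genes at or above the level of the lowest member it was 11.3% in HFD knockout, 10.4% in HFD wild-type, 11.5% in chow knockout and 11.4% in chow wild-type libraries. Those genes were not matched to the members by level, and the median member had 6.10 CPM, beside 2.55 CPM for the lowest. Whether members vary more than other genes of like level was not tested. The most variable member was Gm26584 at 108% in HFD knockout livers, and the least variable 5031425E22Rik at 1.56% in chow wild-type livers.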

How the data were processed

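Whole liver RNA was sequenced in 16 libraries. Per the labels' protocols, RNA was depleted of ribosomal RNA, then TopHat2 aligned the reads and Cuffdiff quantified them. The submitters' processing notes name mm10 as the build. The labels name a small RNA kit, and the read length and cycle number they give were not reconciled here. The deposited table holds estimated counts per gene, made by the authors and not normalized, although its name speaks of FPKM. Versions, annotation and any strand setting were not given in the sources used here. All columns of the table were used.

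Estimated counts were rounded and tested over 16830 genes that passed edgeR's expression filter, with TMM scaling and the quasi-likelihood test of edgeR 4.0.16 (R 4.3.3), 1 mean per group over 16 libraries and 12 residual degrees of freedom. Adjusted p-values are Benjamini-Hochberg over all genes, and the threshold was 0.05; SE is of the log2 fold change. DESeq2 1.42.0, limma 3.58.1 (voom), other scalings and filters, only the groups compared, and leaving out each library were alternatives. The scripts were tested on simulated data. The labels do not say that libraries came from separate animals, so p-values measure the spread between libraries only. Replicate numbers follow accession order. Intervals of counting alone are not given, because the spread between libraries is larger.

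Named members were the 10 with the most counts per kilobase of exon, for each diet comparison the 10 largest rises and 10 largest falls that passed without overlap at 1 CPM or more, the 5 smallest p of each knockout comparison, and members of role lists; others are said to be chosen later or complete a count. The members and lists were chosen with earlier results of these data known. Coordinates are from the deposited table (mm10) and GENCODE M21, sequences from RefSeq (GRCm38.p6).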

Additional observations from a re-analysis of the deposited data

Results flagged for a closer look

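In 150 tests of a named member within a group of 4 or 5 libraries, 11 libraries lay far from the rest of their group. Chance gives about 1 in 20 such groups.

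HFD knockout 1 stood high for 3 members. It had 8.24 CPM of Gm16548 (the other HFD knockout libraries 4.78 to 5.49), 7.96 CPM of 9030622O22Rik (4.01 to 4.49) and 9.41 CPM of 2310001H17Rik (4.53 to 5.22). In the same library, summed B and plasma cell markers had 169 CPM, beside 7.86 to 23.1 CPM in the other HFD knockout libraries. Kupffer and macrophage markers had 763 CPM (the others 406 to 498) and sinusoidal endothelium markers 265 CPM (199 to 209). Hepatocyte markers had 76000 CPM (84900 to 94100), while stellate cell and lipid-associated macrophage markers lay within the range of the others. The part of these markers in the values was not tested.

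HFD wild type 2 stood high for 2 members, with 413 CPM of Neat1 (the other HFD wild-type libraries 160 to 193) and 4.07 CPM of the let-7d host 6720427I07Rik (3.02 to 3.12). Its summed hepatocyte markers had 74800 CPM (87300 to 92300) and its Kupffer and macrophage markers 775 CPM (419 to 626). Lipid-associated macrophage markers had 365 CPM (179 to 327) and cholangiocyte markers 238 CPM (97.0 to 182). Stellate cell markers lay within the range of the others, and the part of all these was not tested. Chow knockout 2 stood low for 2, with 7.32 CPM of Gm16548 (the other chow knockout libraries 8.80 to 9.05) and 5.69 CPM of Gm38102 (8.80 to 9.42). The rest were single. Gm38102 had 6.47 CPM in HFD knockout 3 (the others 4.63 to 5.10), Gm2814 had 2.74 CPM in HFD knockout 5 (1.81 to 2.06) and Gm40770 had 3.17 CPM in HFD knockout 4 (3.64 to 3.73). Gm26880 had 2.66 CPM in chow knockout 1 (1.46 to 1.56).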

How the results depend on the processing

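Over 83 results of named members and 26 alternatives, 2083 of 2154 values kept their direction and side of the threshold, 45 lost the call, 8 gained it and 18 changed sign. No member passed between genotypes under any alternative, leaving out each library included (0 to 0). Leaving out each library gave 17 to 19 members higher and 19 to 23 lower on HFD in knockout, 11 to 15 higher and 14 to 21 lower in wild type, and 22 to 31 shared. Library totals only gave 35 higher and 5 lower in knockout and 6 lower in wild type. Over all genes, 6927 of 7729 calls in knockout were then higher. The CT010467.1 share in the fit gave 13 lower in knockout. Signs changed with library totals only for Gm10076 (0.22 in knockout, 0.13 in wild type), 2900097C17Rik (0.12 in knockout, 0.08 in wild type), Epb41l4aos (0.10) and Gm16973 (0.28) in knockout, 2310001H17Rik in wild type (0.11) and Snhg12 (0.03 in knockout, 0.19 in wild type). Malat1 had 0.03 in knockout with the CT010467.1 share. With 1 library left out, Snhg12 in wild type had -0.31 to 0.07, above 0 without HFD wild type 4 (0.03), chow wild type 2 (0.06) or chow wild type 3 (0.07), and it had 0.09 without HFD knockout 1 and chow wild type 3. Gm16973 in knockout had -0.15 to 0.05, at or above 0 without HFD knockout 3 (0.01) or 4 (0.0) or chow knockout 1 (0.05) or 3 (0.01). The causes were not tested. No paired analysis was possible because replicate numbers only follow accession order and pair no libraries.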
